A study of Zea mays with 11 samples.

Results

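The 4 genes described here, esr1 (GRMZM2G046086), esr2 (GRMZM2G315601), esr3 (GRMZM2G140302) and esr6 (GRMZM2G048353), mark the embryo-surrounding region of the maize endosperm and were taken by their identifiers from a table of 34145 genes. The plants were field-grown Mo17, a standard maize inbred, with all ears selfed on 1 day, no treatment and no mutant. Poly(A) RNA was sequenced from whole kernels on day 3 and day 5 after pollination (DAP), from hand-dissected endosperm on days 7, 9, 10 and 11 and on days 13, 15, 20 and 25, and from the ear leaf on day 13. Each of these 11 stages had 1 library. No stage therefore has a measured spread between plants, and the number of ears or kernels behind a library is not given in the sources used here. Values are FPKM as deposited, a fragment count corrected for the length of the transcript and the size of the library, so levels of different genes can be set side by side per length.

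The embryo-surrounding region is a small pocket of densely cytoplasmic endosperm cells that encloses the young embryo at the base of the kernel and disappears as the embryo grows out of it. The products of esr1, esr2 and esr3 are small secreted proteins of the CLE family, named after CLAVATA3 and these ESR proteins, whose members are cut to short peptides that act on receptor kinases of neighbouring cells. The product of esr6 is a small secreted defensin-like protein, a class known for antifungal activity. In the RefSeq gene order of the maize inbred B73, esr2, esr1 and esr3 are consecutive protein-coding genes with 1 pseudogene between esr1 and esr3, while esr6 lies on another chromosome. RefSeq gives the esr1 and esr2 loci overlapping synonyms, with ESR1 among those of both. Reads of such similar copies may be shared among them by the authors' mapping, so the split of signal between esr1, esr2 and esr3 is uncertain.

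The summed FPKM of a library lay between 273651 and 300271, and genes at 1 FPKM or more numbered 18961 in the 3 DAP kernel and 12507 in the 25 DAP endosperm. The tissue labels were checked against marker lists. The Rubisco activase gene rca1 stood at 146.72 FPKM in leaf and at most at 0.06 in endosperm. The 9 photosynthesis genes matched summed to 3530 FPKM in leaf and 302 in the 15 DAP endosperm. In that endosperm library ppdk1 alone stood at 299.28 FPKM, beside 968.26 in leaf. The 13 starchy endosperm genes matched, among them the zein genes zp16, gz50 and zp27, summed to 161 FPKM on day 7 and 45400 on day 20. Of the 11 embryo genes matched, the regulators lec1 and wox5b and the late embryogenesis gene emb5 stayed at or under 0.46, 0.04 and 0.96 FPKM in every kernel and endosperm library. The embryo regulator wox2a stood at 5.31 FPKM on day 7, 1.06 on day 9 and 5.25 on day 10, and between 0.85 and 5.92 over the endosperm libraries. The globulin gene glb1 stood at 0.64 on day 9 and reached 28.95 on day 11. The oleosin gene ole1, which embryo and aleurone both express, reached 121.47 FPKM at 10 DAP, and the dehydrin gene rab17 had its highest seed value, 62.13 FPKM, in the 3 DAP kernel. The summed embryo list was 29.5 FPKM on day 7, 145 on day 11 and 119 on day 25. The labels do not say whether the cells that line the embryo pocket stayed with the dissected endosperm, and the part of this in the values below was not tested. In these bulk samples, fewer cells of a type, a smaller share among all cells and less RNA per cell cannot be told apart. FPKM is relative to the whole library, so a rise of other transcripts also lowers it.

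All 4 ESR transcripts were near 0 in the 3 DAP kernel, present in the 5 DAP kernel, highest in the 7 DAP endosperm and at 29.2% or less of that level from 9 DAP onward. The esr1 transcript, a CLE gene, stood at 0.38 FPKM on day 3, 18.62 on day 5 and 99.16 on day 7, then at 24.96 on day 9, 11.47 on day 10, 5.28 on day 11, 0.47 on day 13, 0.33 on day 15 and 0.09 on day 20, and was listed at 0 on day 25. Every library from 13 DAP on was under 1 FPKM. The CLE gene esr2 stood at 0.16 FPKM on day 3, 3.92 on day 5 and 49.72 on day 7, followed by 14.52 on day 9, 14.26 on day 10, 7.06 on day 11, 1.63 on day 13, 1.77 on day 15, 1.5 on day 20 and 0.33 on day 25. Unlike the values of esr1, those of esr2 lay on a low plateau from 13 to 20 DAP.

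The third CLE gene, esr3, was the lowest of the 4 at its peak: 0.04 FPKM on day 3, 2.76 on day 5, 35.76 on day 7, 8.48 on day 9, 8.17 on day 10, 2.74 on day 11, 0.36 on day 13 and 0.2 on day 15. It was listed at 0 at 20 and 25 DAP. The defensin-like gene esr6 had the highest peak, with 0.16 FPKM on day 3, 10.31 on day 5, 111.93 on day 7, 8.5 on day 9, 18.93 on day 10, 10.13 on day 11, 5.83 on day 13, 2.89 on day 15, 4.06 on day 20 and 0.07 on day 25. Its 9 DAP value was below those of both neighbouring days. In leaf all 4 genes were listed at 0. Of the 9301 genes that reach 10 FPKM in a kernel or endosperm library, 3.85% were listed at 0 in leaf.

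**Figure D1:**
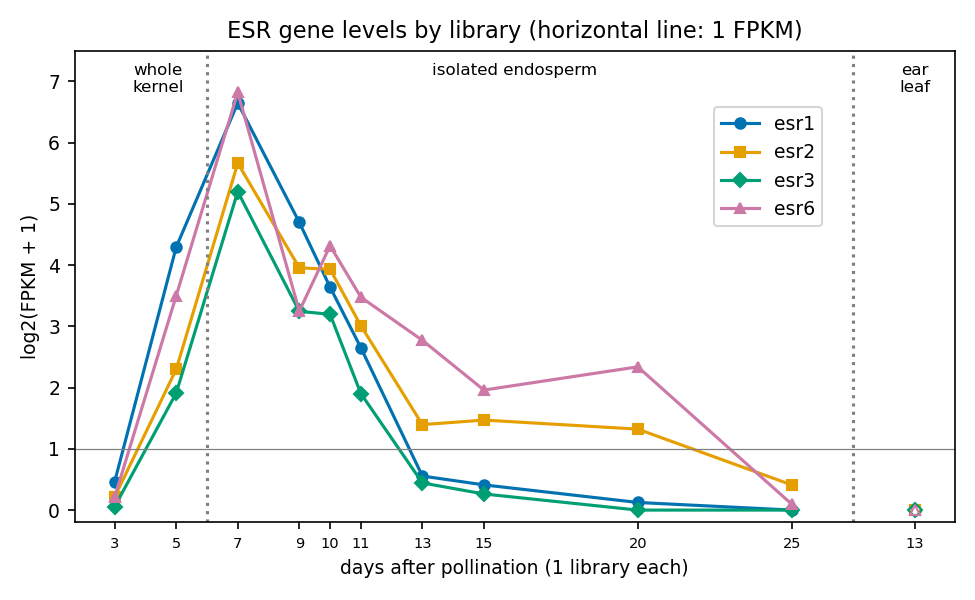
Level of each ESR gene as log2(FPKM + 1) against days after pollination, 1 library per point, with whole kernel, endosperm and leaf separated by dotted lines and the line between points as a guide. All 4 genes are highest on day 7, esr1 and esr3 drop under 1 FPKM on day 13, and esr2 and esr6 stay above it until 20 DAP.

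Onset, taken as the earliest library at 1 FPKM or more, was the 5 DAP kernel for all 4 genes. Between the 3 and 5 DAP kernels the log2 ratio of (FPKM + 1) was 3.83 for esr1, 3.29 for esr6, 2.08 for esr2 and 1.85 for esr3. Thus 3 of 4 members were at least 4-fold higher on this scale, against 0.208% of all listed genes. Shares for such 4-fold steps, here and below, are over all listed genes, many of them low. The median was 1.51 FPKM in the 5 DAP kernel, too low a level to pass 4-fold higher on this scale. Shares among genes as high as the members are not given for these steps. From the 5 DAP kernel to the 7 DAP endosperm the FPKM value was 5.33-fold higher for esr1, 10.9-fold for esr6, 12.7-fold for esr2 and 13.0-fold for esr3. All 4 passed 4-fold on the log2(FPKM + 1) scale, against 1.53% of genes. Day and tissue change together in that step, so a later stage and the removal of the other kernel tissues cannot be told apart. Neither step has a replicate check.

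The peak was the 7 DAP library for all 4 genes, as for 11.5% of the genes that reach 10 FPKM. It exceeded the second highest library 3.42-fold for esr2, 3.97-fold for esr1, 4.22-fold for esr3 and 5.91-fold for esr6. The second highest library was 9 DAP for the CLE genes and 10 DAP for esr6. Every member was under 50% of its peak at 9 DAP. Of the later steps, esr1 passed 4-fold lower from 11 to 13 DAP (log2 ratio -2.09, against 0.39% of genes) and esr6 from 20 to 25 DAP (-2.24, against 0.882%). A level under 10% of the peak was reached on day 9 by esr6, on day 11 by esr1 and esr3, and on day 13 by esr2, although esr6 was above that mark again on day 10 (16.9%).

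Loss, taken as the earliest endosperm library under 1 FPKM with none at or above it later, fell on 13 DAP for esr1 and esr3 and on 25 DAP for esr2 and esr6. In the library just before, esr1 stood at 5.28 FPKM, esr3 at 2.74, esr2 at 1.5 and esr6 at 4.06. All 4 genes were at 1 FPKM or more on day 7 and under it on day 25, which held for 27.2% of the 15836 genes at 1 FPKM or more on day 7. With a threshold of 5 FPKM, onset moved to 7 DAP for esr2 and esr3, and loss to 11 DAP for esr3, 13 DAP for esr2 and 15 DAP for esr6.

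The change over the 8 endosperm libraries was tested as a straight line of log2(FPKM + 1) against day with limma, with Benjamini-Hochberg adjustment over the 15149 genes whose mean reached 1 FPKM. All 4 members passed that filter and all 4 fell, against 37.4% of the genes tested, while 10.3% of those genes rose. The slope of esr1 was -0.339 ± 0.076 (SE) per day (adjusted p = 0.0069), that of esr6 -0.276 ± 0.055 (adjusted p = 0.004), that of esr3 -0.263 ± 0.061 (adjusted p = 0.0075) and that of esr2 -0.258 ± 0.048 (adjusted p = 0.0032). These p-values treat departures from the line as the error, since no day was replicated. Relative to the median gene, whose slope was -0.034 per day, the members' slopes ran from -0.305 for esr1 to -0.224 for esr2. The size of the slopes depended on the pseudocount. With 0.1 in place of 1 they were -0.544 for esr1, -0.340 for esr2, -0.484 for esr3 and -0.395 for esr6, and with 5 they were -0.198, -0.154, -0.133 and -0.174, so that the shallowest slope was that of esr3. A lower slope than that of esr1 was found for 0.271% of tested genes, and a lower one than that of esr2 for 0.984%.

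The 95% intervals of the members' slopes overlapped, from -0.511 to -0.167 for esr1 and from -0.366 to -0.149 for esr2, and differences between slopes were not tested. In a limma F-test with a term for day and another for its square, which a straight decline can also pass, all 4 members were called, against 54.4% of genes, with adjusted p-values of 4e-04 for esr1 and esr3, 0.00059 for esr2 and 0.0042 for esr6. The day-squared term was positive in all 4, so the fitted decline was steeper early than late. Without the 20 and 25 DAP libraries the slopes were -0.827 for esr1, -0.641 for esr3, -0.553 for esr2 and -0.513 for esr6 (limma adjusted p between 0.0029 and 0.014), and without 25 DAP that of esr3 was -0.397.

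**Figure D2:**
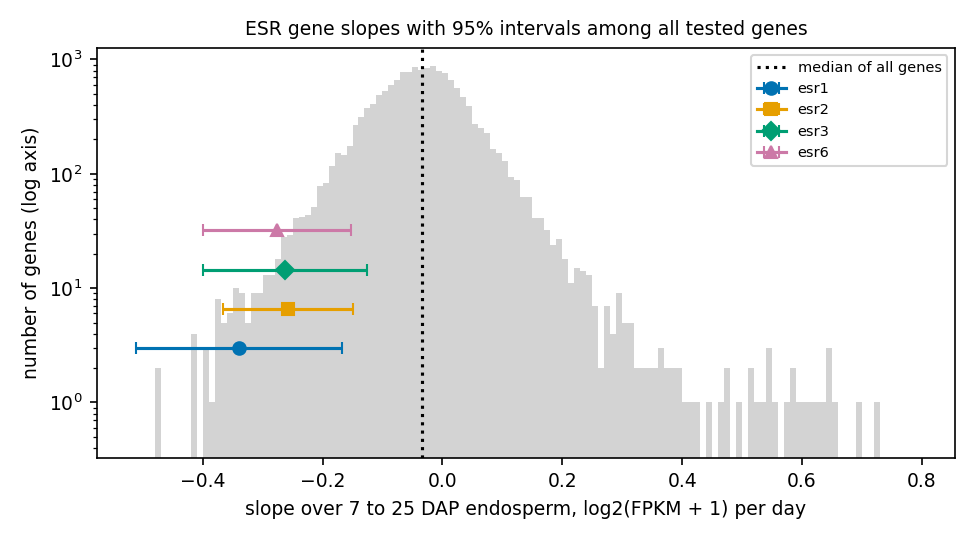
Slope of log2(FPKM + 1) per day over the 8 endosperm libraries for 15149 genes (grey, log axis), with the 4 ESR genes and their 95% intervals at arbitrary heights. All 4 intervals lie left of the median of all genes (-0.034, dotted line) and overlap one another.

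The share of each gene in the summed ESR level differed between stages. The 4 genes together stood at 0.74 FPKM on day 3, 35.6 on day 5, 297 on day 7, 56.5 on day 9, 52.8 on day 10, 25.2 on day 11, 8.29 on day 13, 5.19 on day 15, 5.65 on day 20 and 0.4 on day 25. The esr1 share was 52.3% in the 5 DAP kernel, 33.4% on day 7, 44.2% on day 9, 21.7% on day 10, 20.9% on day 11 and 5.67% on day 13. The esr6 share was 37.7% on day 7, 15.1% on day 9, 70.3% on day 13, 55.7% on day 15 and 71.9% on day 20. Shares from 13 DAP on rest on single-digit FPKM values, and at 3 and 25 DAP on sums under 1 FPKM.

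Within the CLE cluster the deposited values of esr1 and esr2 changed places, while that of esr3 was the lowest in every kernel and endosperm library up to 20 DAP. The ratio of esr1 to esr2 FPKM was 4.75 on day 5, 1.99 on day 7, 1.72 on day 9, 0.804 on day 10, 0.748 on day 11, 0.288 on day 13, 0.186 on day 15 and 0.06 on day 20. It was lower in each later library of that span, and esr2 was the higher of the pair from 10 DAP on. The ratio of esr2 to esr3 was 1.42 on day 5, 1.39 on day 7, 1.71 on day 9, 1.75 on day 10 and 2.58 on day 11. That of esr1 to esr3 was 6.75 on day 5, 2.77 on day 7, 2.94 on day 9, 1.4 on day 10, 1.93 on day 11, 1.31 on day 13 and 1.65 on day 15. The ratios with esr1 from 13 DAP on rest on esr1 values under 1 FPKM. The split of reads among these similar genes is uncertain, so their order may be affected by the mapping. With 1 library per stage there is no spread against which neighbours in the order of levels could be set, and no ratio was tested.

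**Figure D3:**
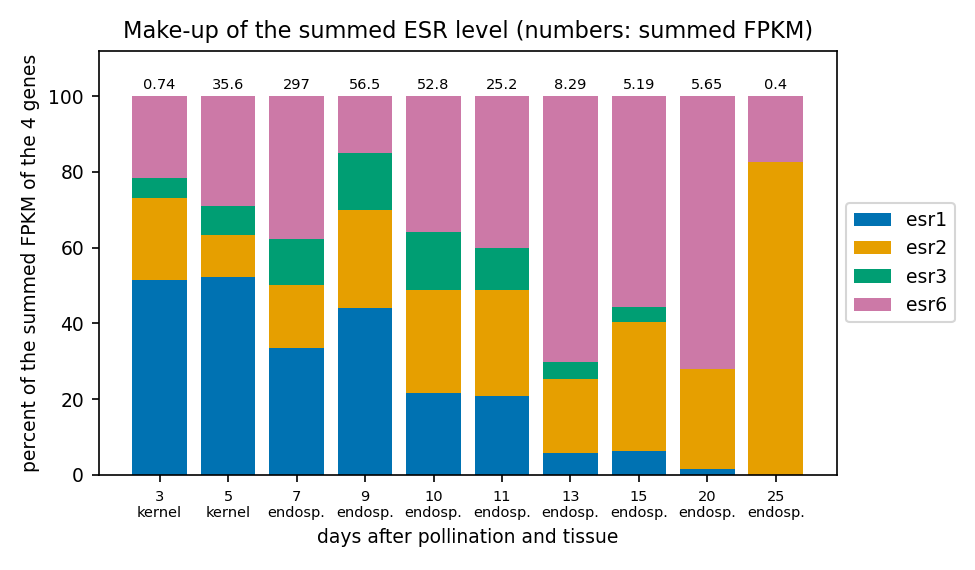
Percent of the summed FPKM of the 4 ESR genes that each gene holds in every kernel and endosperm library, with the summed FPKM above each bar. The esr1 share is 52.3% on day 5, 33.4% on day 7, 44.2% on day 9 and 5.67% on day 13, while esr6 holds 70.3% on day 13 and 55.7% on day 15, and esr2 holds 82.5% of a sum of 0.4 FPKM on day 25.

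The 9 DAP library set esr6 apart from the CLE genes. From 7 to 9 DAP the FPKM value of esr6 was 13.2-fold lower, while those of esr2, esr1 and esr3 were 3.42-fold, 3.97-fold and 4.22-fold lower. On the log2(FPKM + 1) scale esr6 passed 4-fold (-3.57), against 1.03% of genes, and the others did not (-1.71 to -1.96). From 9 to 10 DAP esr6 was 2.23-fold higher, esr2 and esr3 were 1.02-fold and 1.04-fold lower, and esr1 was 2.18-fold lower. A 9 DAP value at or under 50% of both neighbouring days, as in esr6, was found for 12.1% of the genes that reach 10 FPKM. The 9 DAP library had fewer genes at 1 FPKM or more (14333) than the 7 DAP (15836) and 10 DAP (15674) libraries. From 7 to 9 DAP 1.03% of all listed genes were at least 4-fold lower and 0.0322% at least 4-fold higher. From 9 to 10 DAP 0.975% were at least 4-fold higher and 0.0176% lower. On days 7, 9 and 10 wox2a stood at 5.31, 1.06 and 5.25 FPKM and glb1 at 4.01, 0.64 and 12.15. The oleosin gene ole1, at 19.15, 30.79 and 121.47, had no such dip. The part of these library differences in the ESR values at 9 DAP was not tested. Without 9 and 25 DAP all 4 slopes stayed called (limma adjusted p between 0.0092 and 0.017).

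Over the 10 kernel and endosperm libraries, Pearson's r of log2(FPKM + 1) was 0.976 for esr2 with esr3, 0.966 for esr1 with esr3 and 0.923 for esr1 with esr2. It was 0.936 for esr6 with esr2, 0.893 with esr3 and 0.857 with esr1. The values are descriptions over libraries that share depth and scaling, and the 7 DAP peak weighs on all of them.

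Transfer cell genes, active in the basal endosperm cells that import nutrients, were the other early endosperm genes compared. Several traits of the ESR genes were shared by part of them. Of the 11 matched, 5 were highest at 7 DAP, and betl2 stood at 0.61 FPKM on day 3 and 26.52 on day 5. Another, mn1, was highest on day 5, at 34.7 FPKM. The summed list was 1510 FPKM on day 7 and 0.15 in leaf. Of 11 matched, 10 were tested and 9 fell, against 37.4% of all tested genes, with a median slope of -0.238, beside -0.27 for the ESR genes and -0.034 for all tested genes. At 9 DAP the 4 ESR genes stood at 7.59 to 29.2% of their 7 DAP value, while the 8 transfer cell genes of at least 10 FPKM at 7 DAP stood at 69.1 to 105%. A 9 DAP value under 30% of the 7 DAP value was found for 6.26% of the 5321 genes at 10 FPKM or more at 7 DAP. At 11 DAP the ranges were 5.32 to 14.2% for the ESR genes and 31.6 to 110% for the transfer cell genes, and at 25 DAP 0 to 0.664% and 0.97 to 35.5%. The transfer cell genes betl10, a defensin-type gene, and betl2 stood at 521.92 and 316.54 FPKM on day 7 and at 548.85 and 273.13 on day 9. The meg2 match GRMZM2G094054 stood at 282.5 and 286.42. The difference between the groups was not tested, and each day rests on 1 library.

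**Figure D4:**
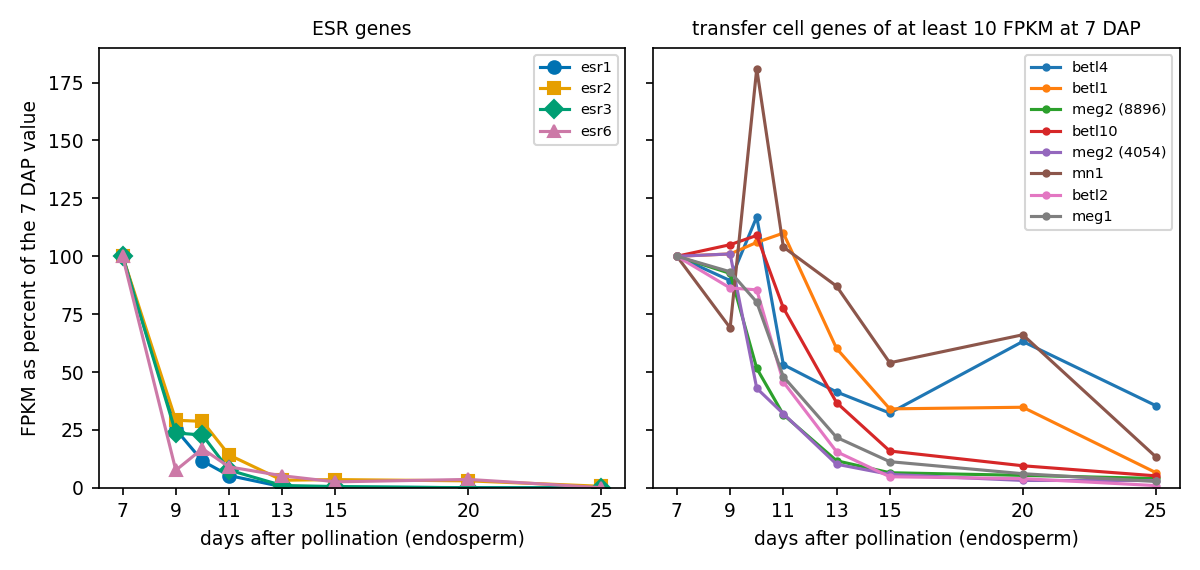
FPKM as percent of the 7 DAP value over the endosperm libraries for the 4 ESR genes (left) and 8 transfer cell genes (right, meg2 matching 2 identifiers told apart by their last 4 digits). At 9 DAP the ESR genes lie between 7.59 and 29.2% and the transfer cell genes between 69.1 and 105%.

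The other CLE peptide genes found by an Arabidopsis match were low in these libraries. This search was incomplete, since esr1, esr2 and esr3 themselves have no Arabidopsis match in the deposited values. CLE genes like them would be missed. Of 8 genes with an Arabidopsis CLE or CLAVATA3 match, 2 reached 1 FPKM in any library and none passed the filter of the slope test. The CLAVATA3 match GRMZM2G165836 stood at 2.35 FPKM on day 3, 0.84 on day 5 and 1.17 on day 7, and the CLE26 match GRMZM2G474685 peaked at 1.15 on day 20. Each value is below that of every ESR gene at 7 DAP. Of the 12 symbols listed for CLE signalling in meristems, 5 were matched. The receptor-like protein gene fea2 fell, with 2.94 FPKM on day 7 and 0.71 on day 25 (slope -0.075, limma adjusted p = 0.0058), with its highest value, 5.83, in the 3 DAP kernel. The receptor genes td1 and fea3 were also highest at 3 DAP, at 1.13 and 2.49 FPKM, and missed the filter. The gene ct2, for the G protein alpha subunit, lay between 36.49 and 74.8 FPKM in endosperm and was not called (limma adjusted p = 0.225).

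Among 12 genes with an Arabidopsis match to a plant defensin or a low-molecular-weight cysteine-rich protein, 6 were tested and 4 fell, with a median slope of -0.187, against 37.4% of all tested genes that fell. This search for the class of esr6 was incomplete too, since esr6 itself has no Arabidopsis match in the deposited values. The matches AC196417.3_FG008 and GRMZM2G158407 stood at 56.34 and 83.93 FPKM on day 7, at 39.28 and 80.91 on day 9 and at 1.75 and 0.84 on day 25. GRMZM2G158407 was highest on day 10, at 102.42 FPKM, so neither had the early drop of the ESR genes. GRMZM2G046532 was at 491.1 FPKM on day 7, 133.52 on day 9 and 449.99 on day 10, a low value on day 9 as in esr6, and stood at 42.84 on day 25. The gene betl10 is in this list too. GRMZM2G392863 stood at 0.72 FPKM on day 7 and 132.99 on day 15, without a slope call (limma adjusted p = 0.171). The other tested gene without a slope call, AC211996.4_FG002, was close to the ESR pattern. It stood at 5.42 FPKM on day 5, 16.58 on day 7 and 0.74 on day 9, and was listed at 0 from day 11 on. Its limma adjusted p was 0.148 for the slope and 0.0213 in the F-test. AC202172.3_FG004, which missed the filter, stood at 1.29, 4.31 and 0.42 FPKM on days 5, 7 and 9.

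Of 6 regulators of early endosperm matched, all tested, 2 fell, against 37.4% of all tested genes. Between 7 and 25 DAP the Polycomb gene fie1 went from 53.22 to 7.49 FPKM and the MADS-box gene mads47 from 2.51 to 0.69 (limma adjusted p = 0.0014 and 0.00675). The Polycomb genes mez1 and fie2, the aleurone regulator nkd2 and the PLATZ gene fl3 had no slope call, with peaks of 31.42 FPKM on day 9, 3.48 on day 3, 35.47 on day 11 and 2784.55 on day 15. Of 10 aleurone genes matched 7 were tested and 4 fell, against 37.4% of all tested genes, with nkd1 at 108.15 FPKM on day 15 and sal1 at 45.82 on day 3 among the highest. Of 4 embryo genes tested, glb2 rose, to 57.17 FPKM at 25 DAP, and none fell. Of 13 starchy endosperm genes tested 8 rose and none fell. Of all tested genes 10.3% rose.

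The genes whose profile was most like the ESR genes were ranked by Pearson's r with the mean of the 4 members' z-scored log2(FPKM + 1) profiles over the 10 kernel and endosperm libraries. Of 9297 genes that reach 10 FPKM, 43 had an r of 0.9 or more (0.463%). The members themselves had r of 0.964 (esr1), 0.987 (esr2), 0.987 (esr3) and 0.949 (esr6). Each member is part of that mean, which raises its r, so these values cannot be set beside those of other genes. The most alike was GRMZM2G355761 (r = 0.992), at 10.29 FPKM on day 5, 67.88 on day 7, 16.91 on day 9, 15.47 on day 10, 1.79 on day 13 and 0.25 on day 25. It was followed by GRMZM2G323925 (r = 0.987), GRMZM2G080263 and GRMZM2G496821 (r = 0.981 each). None of these 4 has a name or an Arabidopsis match in the tables used.

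The others of the 10 were cc8 (GRMZM2G401374, r = 0.975), a cystatin, which is an inhibitor of cysteine proteases, GRMZM2G101584 (0.971), the cytochrome P450 match AC210173.4_FG005 (0.960), bap-3a (GRMZM2G133382, 0.954), GRMZM2G166234 (0.951) and the cytochrome P450 match GRMZM2G003796 (0.949). The cc8 transcript stood at 35.45 FPKM on day 5, 152.95 on day 7 and 0.76 on day 25, and GRMZM2G101584 at 192.27 on day 7 and 0.67 on day 13. That of bap-3a stood at 24.03 FPKM on day 7 and 18.71 on day 9, a smaller drop than in any ESR gene. Likeness was shared in part by the transfer cell genes that reach 10 FPKM. Their r ran from 0.397 for mn1 and 0.561 for betl4 to 0.876 for betl2 and 0.879 for the meg2 match GRMZM2G088896. All 10 were highest at 7 DAP, as were 11.5% of the genes that reach 10 FPKM. That peak follows largely from ranking by likeness to a profile highest on day 7. In leaf, which the ranking did not use, 9 of 10 were listed at 0, against 3.85% of the genes that reach 10 FPKM. The exception was AC210173.4_FG005 at 1.22 FPKM. The ranking depended on its settings. By Spearman's rho 4 of these 10 were again among the 10 highest, and over the 8 endosperm libraries alone 2 were.

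**Figure D5:**
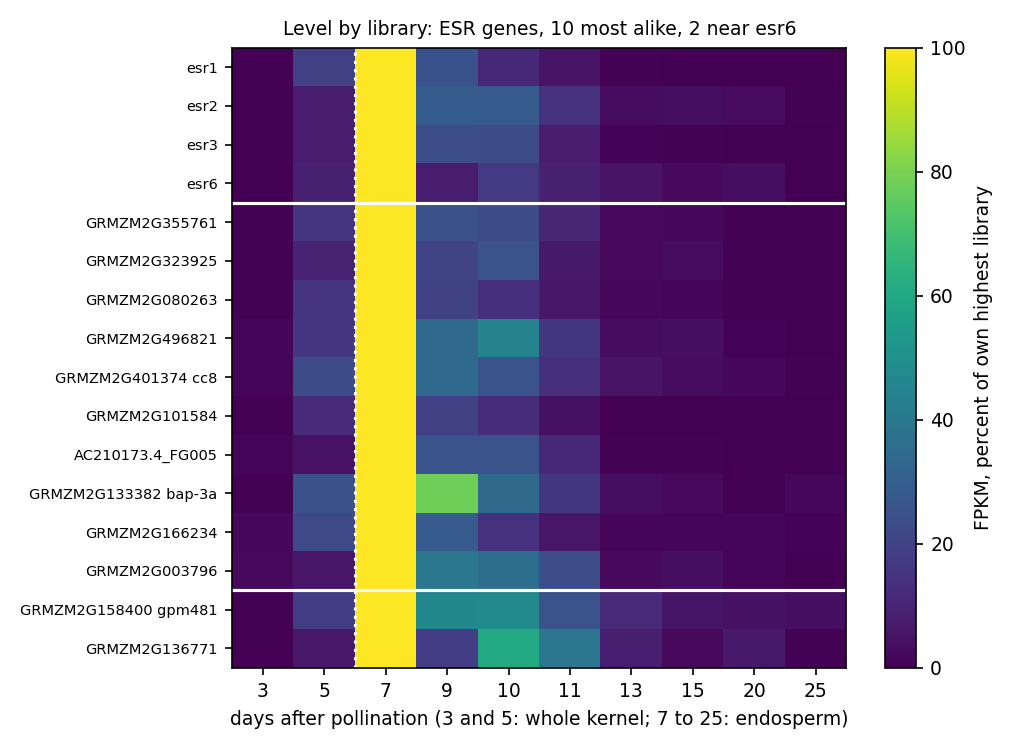
FPKM as percent of each gene's highest library, by day, for the 4 ESR genes (top), the 10 genes of most similar profile (middle) and 2 genes near esr6 in the RefSeq gene order (bottom), with kernel left and endosperm right of the dotted line. All 16 rows peak on day 7, which for the 10 follows largely from their choice by likeness. Among the 10, bap-3a keeps the largest part of its peak on day 9.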

How the data were processed

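The authors deposited FPKM values for 34145 genes, rounded to 2 decimals, with 1 column per library. The tools named, per the submitters' processing notes, are cutadapt, TopHat2 and edgeR. Their roles and versions, the build, the annotation, library totals and gene lengths are not given in sources used here, so depth is unknown and no counting interval is given. Names came from RefSeq (Zm-B73-REFERENCE-NAM-5.0, names and gene order only), which matched 18368 identifiers (53.8%).

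Slopes were fitted with limma 3.58.1 in R 4.3.3 (trend, two-sided, threshold 0.05) on log2(FPKM + 1), a scale that understates changes of low genes. The fit leaves 6 residual degrees of freedom and the curved test 5. Members and lists were chosen with earlier results of these data known. The CLE genes were to be found by protein motif, but no protein table was at hand, so Arabidopsis matches were used instead, and the defensin-like list was added after values were seen. Genes that shared a list symbol as homonyms (8) were left out after values were seen. The 5 symbols of endosperm next to the scutellum matched no identifier. Named are the members, the 10 most alike genes, CLE and regulator genes at 1 FPKM or more, and the 3 highest members of each marker list, with lec1, wox5b, wox2a, glb1, emb5, rca1 and the defensin-like genes chosen after values were seen. Of the photosynthesis list, 9 genes matched, with ppdk1, pep1 and mdh6 at 968.26, 932.13 and 665.12 FPKM in leaf, and 0 of 2 tested were called.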

Additional observations from a re-analysis of the deposited data

How the results depend on the processing

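All 4 ESR genes fell, and all 4 passed the curved test, under every alternative run: pseudocounts of 0.1 and 5, no filter, quantile and upper quartile scaling, log2 of the day, order of the stages, each endosperm library left out, without 20 and 25 DAP and, added after the data were seen, without 9 and 25 DAP and rescaling without the 100 highest genes. With 1 library left out, slopes ran from -0.506 to -0.263 for esr1, -0.334 to -0.21 for esr2, -0.397 to -0.201 for esr3 and -0.308 to -0.208 for esr6. All tested genes that fell numbered 5671 as deposited, 2733 after quantile normalization, 3602 without 20 and 25 DAP and 3464 after rescaling without the 100 highest genes. The median change of all genes from 7 to 25 DAP was -0.61 on the log2 scale as deposited and 0.02 after quantile normalization. Onset, loss and peak days were the same with a threshold of 0.5 FPKM or the scalings tried for them. A threshold of 5 FPKM moved onset of esr2 and esr3 to 7 DAP and loss to 13 DAP for esr2, 11 DAP for esr3 and 15 DAP for esr6. Of the 10 most alike genes, 4 were shared by Spearman's rho and 2 over endosperm alone. No paired analysis was possible because each stage has 1 library. Depth is unknown, so values listed at 0 show only that the gene was listed at 0.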

Other observations

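Genes near esr6 in the RefSeq order were looked at after their values were seen. The gene gpm481 (GRMZM2G158400) lies 3 entries before esr6 and GRMZM2G136771 lies 3 entries after it. The entries between them and esr6 were not matched to an identifier. The gpm481 transcript stood at 20.76 FPKM in the 5 DAP kernel, 111.77 on day 7, 52.32 on day 9, 53.07 on day 10, 13.8 on day 13 and 4.3 on day 25. GRMZM2G136771 stood at 2.98 FPKM on day 5, 44.42 on day 7, 8.05 on day 9, 27.01 on day 10, 3.81 on day 13, 1.13 on day 15, 3.19 on day 20 and 0.28 on day 25. Its low values at 9 and 15 DAP are also those of esr6. Both genes were listed at 0 in leaf. The next entry, GRMZM5G889769, 4 after esr6, had another profile, with 15.32 FPKM on day 5 and 0.87 on day 7. Ranked by Pearson's r with esr6 alone over the 10 kernel and endosperm libraries, GRMZM2G136771 was number 4 (r = 0.926) and gpm481 number 11 (r = 0.904) of 9300 genes, and the CLE gene esr2 was number 1 (r = 0.936). Next to the CLE cluster, GRMZM2G115131 before esr2 was at 0.48 FPKM on day 7 and at 9.59 on day 3, and GRMZM2G417835 after esr3 was at 0.54 on day 7 and 6.31 on day 5, both far from the ESR pattern.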
